A study of Macaca fascicularis with 23 samples.

Results

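Hepatic transcripts of plasma proteins of the acute phase response and of albumin were examined in liver from cynomolgus monkeys (Macaca fascicularis). The genes were CRP, HP, HPX, CP, LBP, ORM1, APCS, TF and ALB, and every probe set whose array annotation names one of them was taken, whatever its intensity. Of the 9 genes, 8 were found on 11 probe sets of the 12625 in the value table, and all 11 passed the intensity filter that left 7535 probe sets for testing. APCS was not analysed here. No probe set names ORM1 alone, and its values come from a probe set (35315_at) shared by ORM1 and ORM2.

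RNA from 23 animals was hybridised to 23 arrays, 1 per animal. In the 4-day arm, 2 animals had received vehicle and 2 had received ciprofibrate, a fibrate and PPAR-alpha agonist, at 400 mg/kg/day. In the 15-day arm, 3 animals had received vehicle, and ciprofibrate had been given to 4 animals per dose, at 3, 30 or 150 mg/kg/day or at the dose of the 4-day arm. No genetic change, age or strain is given in the labels for any group, and each animal contributed frozen tissue of the right lateral lobe only. Values are probe set intensities on a linear scale, listed in the order of the replicate numbers, and differences are on the log2 scale. Their precision is limited by the number of arrays, most of all in the groups of 2. The probes were designed on human sequence, and their match to monkey transcripts was not checked. Values were therefore compared within a probe set, and levels of different genes were not ranked against each other.

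The acute phase response is the change in plasma proteins that follows infection or injury, and hepatocytes are the main source of these proteins. Interleukin-6 acting through STAT3, and interleukin-1 acting through NF-kappaB and the C/EBP factors, raise transcription of the positive acute phase proteins. Synthesis of the negative acute phase proteins, such as albumin and transferrin, falls in the same state. HPX, HP, ORM1, CRP, LBP and CP are positive members in primates, and fibrates are known to lower several acute phase proteins through PPAR-alpha.

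Hemopexin (HPX), the plasma protein that binds free haem and carries it to the liver, was the member that fell against vehicle. On its probe set (39763_at) the 15-day vehicle animals had intensities of 12901, 9689 and 10834, and the animals at 400 mg/kg/day had 3180.5, 3830.1, 4579 and 6451. All animals at 400 mg/kg/day lay below all vehicle animals. The group means were 4510.1 ± 1414 (SD, n = 4) and 11141 ± 1628 (SD, n = 3). The log2 difference was -1.34 ± 0.27 (SE), a 2.53-fold lower level on the scale used (log2 of the value plus 16), with an adjusted p of 0.00675 in limma. Across the array 2.14% of the probe sets tested were called in this comparison at an adjusted p under 0.05, and 0.876% were called as lower. Of the 11 member probe sets, 1 was called. Without replicate 1 of the 15-day vehicle animals, which had the highest HPX value of its group, the difference was -1.23 with an adjusted p of 0.0534 in limma.

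HPX intensities had an SD of 3490 at 30 and 2899 at 150 mg/kg/day, beside 1628 in vehicle and 1489 at 3 mg/kg/day. At 3 mg/kg/day the intensities were 13842.5, 10932, 10818 and 10847, all within or above the range of vehicle. At 30 mg/kg/day they were 6678, 7356, 7570.2 and 14140.6, so 3 of the 4 animals lay below all vehicle animals and 1 lay above them all. At 150 mg/kg/day they were 6284, 11492, 5938 and 10696, with 2 animals below the vehicle range and 2 inside it. The differences from vehicle were 0.06 at 3, -0.38 at 30 and -0.43 at 150 mg/kg/day, each ± 0.27 (SE), with adjusted p of 0.963, 0.691 and 0.608 in limma. These comparisons share the 3 vehicle animals. Over 5 equally spaced dose steps, vehicle included, the slope of HPX was -0.32 ± 0.06 (SE) log2 units per step with an adjusted p of 0.00275, where 3.11% of all probe sets tested were called and 1.31% were called as falling. HPX was the only one of the 11 member probe sets called for the slope.

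The comparison of 400 with 3 mg/kg/day uses no vehicle animal. In it the log2 difference of HPX was -1.40 ± 0.25 (SE), a 2.64-fold lower level, with an adjusted p of 0.00183 in limma. The 2 groups of HPX values did not overlap. Here 4.18% of all probe sets were called, 2.26% as lower, and 3 of the 11 member probe sets were called, all as lower. The other 2 were those of haptoglobin. At 15 days, 1 of the 11 member probe sets, HPX, had all values at 400 mg/kg/day below all of vehicle, as did 6.53% of the probe sets tested. Against 3 mg/kg/day it was again 1 of 11, HPX, beside 5.45% of all probe sets.

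**Figure D1:**
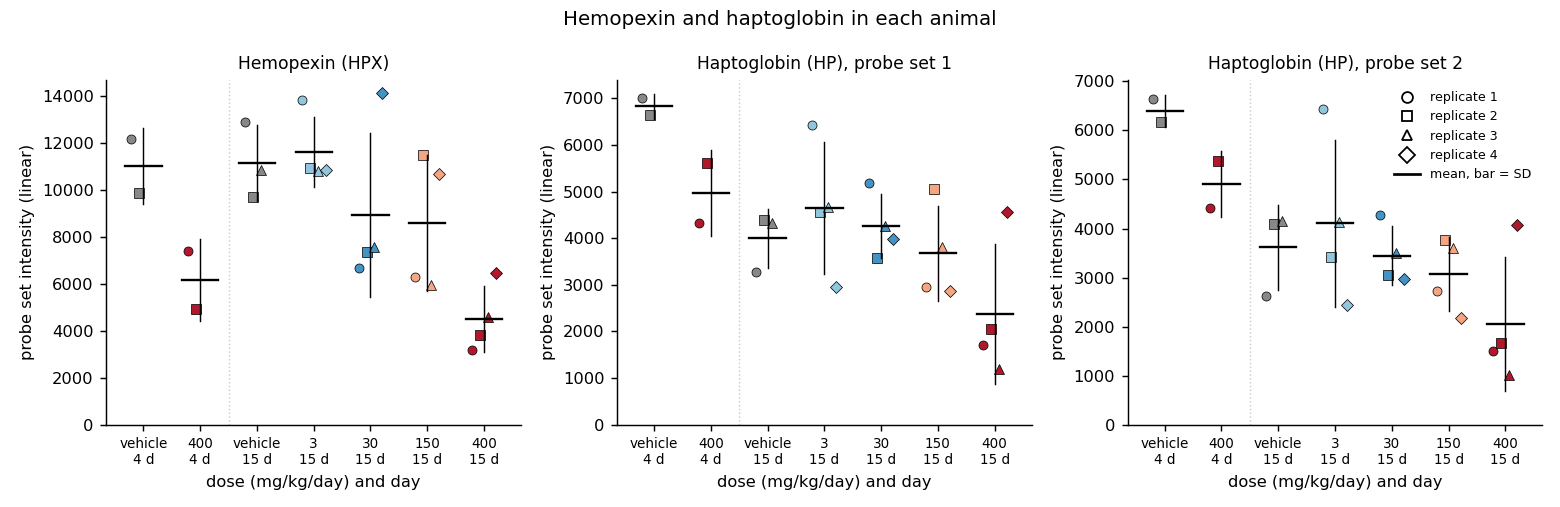
Intensity (linear scale) of the HPX probe set and both HP probe sets in each of the 23 animals, by dose in mg/kg/day and day; symbols mark replicate numbers, horizontal lines group means and vertical bars SD. All HPX values in the 15-day animals at 400 mg/kg/day, up to 6451, lie below the lowest 15-day vehicle value of 9689, whereas replicate 4 at 400 mg/kg/day stands with the vehicle animals on both HP probe sets.

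Haptoglobin (HP), which captures haemoglobin released from red cells, was lower in 3 of the 4 animals at 400 mg/kg/day and not in the other one. Its 2 probe sets (36984_f_at, here set 1, and 36983_f_at, set 2) carry a suffix that the array maker gave to sets whose probes also fit related sequences. The annotation names HP alone for both, and the relative HPR was not measured on its own. On set 1 the 15-day vehicle animals had 3271, 4400.2 and 4336, and the animals at 400 mg/kg/day had 1703, 2042, 1203 and 4565. Replicates 1 to 3 lay below the vehicle range, and replicate 4 lay above it. On set 2 vehicle had 2620, 4091 and 4148 against 1500.4, 1656.5, 1017 and 4069, so replicate 4 lay inside the vehicle range. The differences from vehicle were -0.92 ± 0.31 (SE) and -0.98 ± 0.34 (SE), with adjusted p of 0.156 and 0.164 in limma, and neither passed the threshold. Without replicate 4 of 400 mg/kg/day they were -1.29 and -1.37, with adjusted p of 0.00723 and 0.01.

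At 3 mg/kg/day HP set 1 had 6429, 4558, 4665 and 2945, and set 2 had 6441, 3424, 4141 and 2436.5. HP was lower at 400 than at 3 mg/kg/day, with log2 differences of -1.09 ± 0.29 (SE) on set 1 and -1.10 ± 0.31 (SE) on set 2 and adjusted p of 0.0302 and 0.0465 in limma. Each of these calls was lost when any one of replicates 1, 2 or 3 of either dose was left out. The differences without one of those animals ran from -1.08 to -0.83 on set 1 and from -1.16 to -0.83 on set 2, with adjusted p up to 0.132 and 0.175. Scaling arrays to a common median also ended both calls, with adjusted p of 0.0589 and 0.0851. The slopes over dose steps were -0.22 ± 0.07 (SE) and -0.23 ± 0.07 (SE) per step, with adjusted p of 0.0986 and 0.103. Without replicate 4 of 400 mg/kg/day they were -0.29 and -0.31, with adjusted p of 0.00331 and 0.00466.

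At the intermediate doses HP overlapped vehicle. Set 1 had 5192, 3574, 4261 and 3992 at 30 mg/kg/day, and 2945, 5063.5, 3812 and 2867 at 150 mg/kg/day. Set 2 ran from 2970.5 to 4277 at 30 mg/kg/day and from 2171 to 3771 at 150 mg/kg/day. The ranges of both doses overlapped those of vehicle on both sets. Against vehicle the difference at 150 mg/kg/day was -0.15 ± 0.31 (SE) on set 1 and -0.24 ± 0.34 (SE) on set 2. The 2 sets moved together over the 23 arrays with a Pearson r of 0.98, and they share sequence.

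Orosomucoid, the acidic glycoprotein that binds basic drugs, was read on the set shared by ORM1 and ORM2. Its 15-day vehicle values were 740.8, 1155 and 1689, and at 400 mg/kg/day they were 343, 754.3, 480.2 and 1400.6. Replicates 1 and 3 lay below the vehicle range and replicates 2 and 4 inside it. The difference was -0.79 ± 0.40 (SE) with an adjusted p of 0.432 in limma, and its 95% interval ran from -1.62 to 0.04. The slope was -0.18 ± 0.09 (SE) per step with an adjusted p of 0.383. At 3 mg/kg/day the values were 1421, 873.4, 1034 and 507.6, at 30 mg/kg/day 1204, 756.1, 986.7 and 1021, and at 150 mg/kg/day 448.3, 1394, 779.2 and 794.3. Ranges of all these doses overlapped.

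C-reactive protein (CRP), the pentraxin that binds phosphocholine on microbes and damaged cells, did not pass the test in any comparison. Vehicle animals at 15 days had 224.3, 226.7 and 253.7 on its probe set (37020_at), a narrow range. Every 15-day drug group spread beyond it on both sides. The values were 481.7, 48.7, 277.2 and 321.8 at 3 mg/kg/day, 293.8, 156.5, 156.6 and 372.1 at 30 mg/kg/day, and 277.3, 313.6, 304.3 and 85 at 150 mg/kg/day. At 400 mg/kg/day they were 91.4, 157.8, 256 and 437.6. The difference of 400 mg/kg/day from vehicle was -0.19 ± 0.54 (SE), with a 95% interval from -1.32 to 0.93, which is wide on both sides of 0.

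Lipopolysaccharide-binding protein (LBP), which hands bacterial lipopolysaccharide to CD14, did not pass the test in any comparison. On its probe set (35013_at) the 15-day vehicle values were 517.3, 387 and 476.2. At 400 mg/kg/day they were 809.7, 381.1, 384.4 and 1128.6, with replicates 1 and 4 above the vehicle range and the others just under it. The difference was 0.40 ± 0.34 (SE) with an adjusted p of 0.73 in limma, and without replicate 4 of 400 mg/kg/day it was 0.10. Against 3 mg/kg/day, where values were 269.7, 597.6, 464.1 and 347.9, it was 0.57 ± 0.31 (SE) with an adjusted p of 0.357. At 30 mg/kg/day LBP ran from 269.5 to 514.4 and at 150 mg/kg/day from 286.6 to 578.4, both overlapping vehicle.

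Ceruloplasmin (CP), the copper-carrying ferroxidase of plasma, had 15-day vehicle values of 1622, 1346 and 2760.0 on its probe set (39008_at). At 400 mg/kg/day the values were 1525, 2655, 2038 and 3544. The groups overlapped, and replicate 4 was again the highest. The difference was 0.35 ± 0.28 (SE) with an adjusted p of 0.707 in limma. The other doses ran from 1378 to 2999 at 3, from 2112 to 2579 at 30 and from 1644 to 2907 at 150 mg/kg/day.

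**Figure D2:**
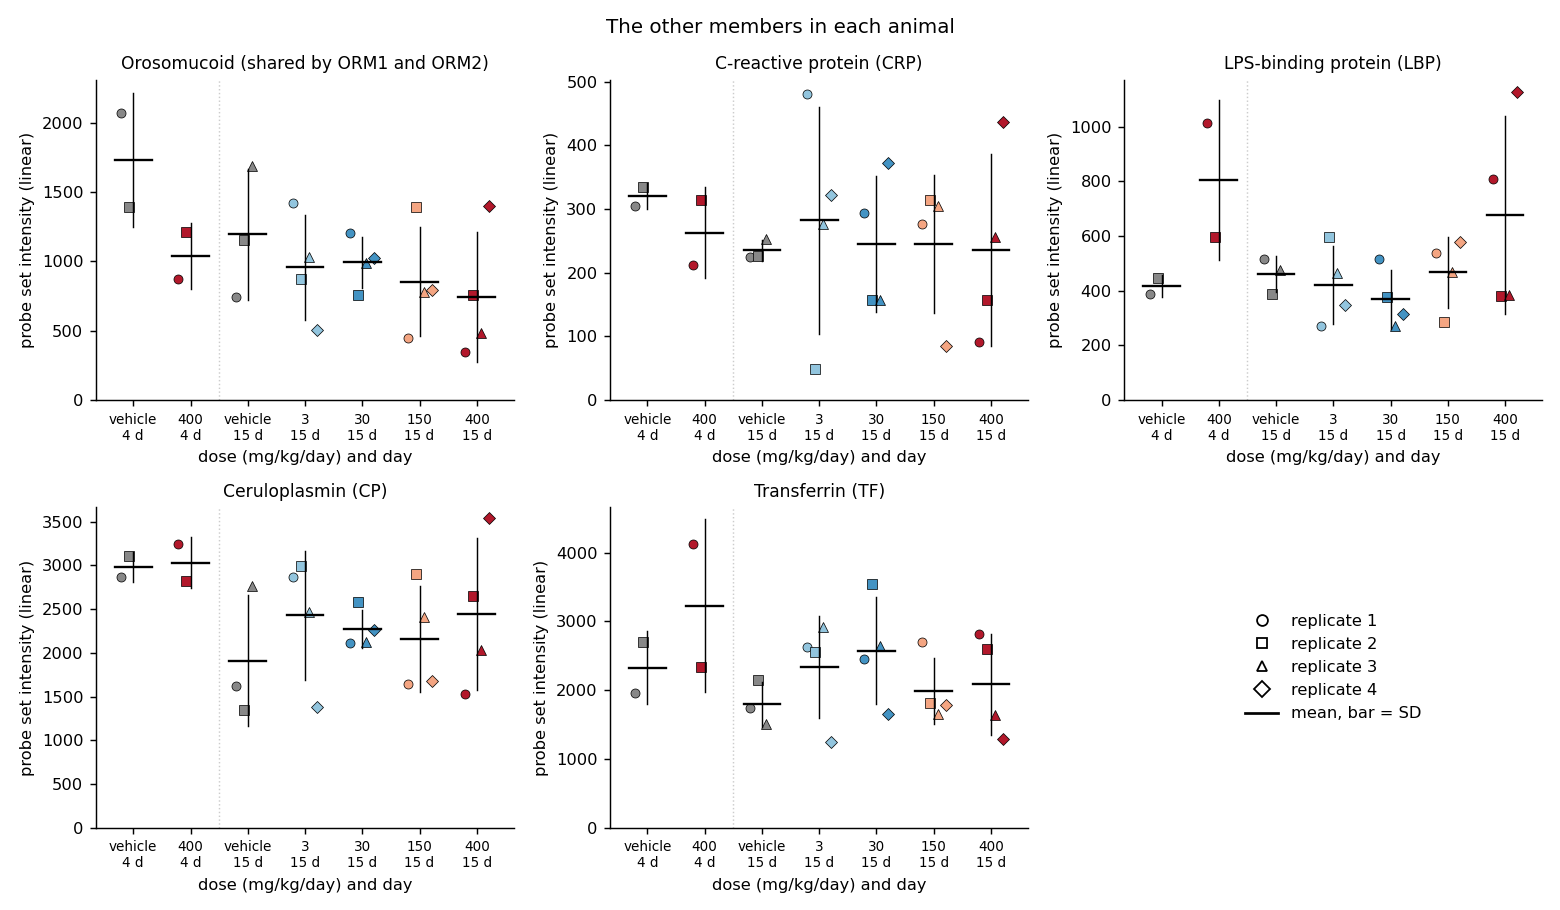
Intensity (linear scale) of the probe sets for ORM1 and ORM2, CRP, LBP, CP and TF in each of the 23 animals, by dose in mg/kg/day and day; symbols mark replicate numbers, lines means and bars SD. The 15-day drug groups overlap vehicle for all 5, and CRP runs from 48.7 to 481.7 within the 4 animals at 3 mg/kg/day.

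Transferrin (TF), the iron carrier of plasma, did not differ beyond the spread between animals. On its probe set (32538_at) the 15-day vehicle values were 1741, 2143 and 1502, and those at 400 mg/kg/day were 2815, 2600.2, 1644 and 1289.8. Replicates 1 and 2 lay above the vehicle range, replicate 3 inside it and replicate 4 below it. The difference was 0.16 ± 0.31 (SE) with an adjusted p of 0.907 in limma and a 95% interval from -0.48 to 0.80. The values ran from 1244.3 to 2927 at 3, from 1650.1 to 3548.5 at 30 and from 1655 to 2698 at 150 mg/kg/day.

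Albumin (ALB), the most abundant plasma protein, was read on 3 probe sets that did not behave alike. Set 1 (33992_at) was among the brightest probe sets, at 76.2% of the highest non-control value of its array on average and up to 100%. A rise on it could be compressed, which was not tested, and no scanner limit is given. Its highest value was 31482. No other member was above 50% on average, and HPX stood at 30.0%. On ALB set 1 the 15-day vehicle values were 21937, 23459 and 25148, and at 400 mg/kg/day they were 21821, 22397, 23939.6 and 26282.5. The groups lay over each other, with a difference of 0.00 ± 0.23 (SE), an adjusted p of 0.998 in limma and a 95% interval from -0.48 to 0.48. At 150 mg/kg/day the animals split into 31482 and 25321 against 13609 and 15047.

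ALB set 2 (33990_at) had vehicle values of 3397, 5136 and 3172 at 15 days, and 3511, 2631, 2636 and 1235 at 400 mg/kg/day. Replicates 2 to 4 lay below the vehicle range and replicate 1 inside it. The difference was -0.70 ± 0.31 (SE) with a p of 0.0357 before and 0.339 after adjustment in limma, so it did not pass the test. With each animal left out it ran from -0.89 to -0.39, the latter without replicate 4 of 400 mg/kg/day. Its slope was -0.16 ± 0.07 (SE) per step with an adjusted p of 0.257. At 3 mg/kg/day set 2 ran from 2165 to 5331, at 30 mg/kg/day from 4052 to 5133 and at 150 mg/kg/day from 1871 to 4248.

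ALB set 3 (33991_g_at), which by its suffix shares sequence with other sets, had 2190.2, 3728 and 2859 in vehicle and 2665, 3192.5, 2466 and 2571 at 400 mg/kg/day. All 4 drug values lay inside the vehicle range. The difference was -0.08 ± 0.22 (SE) with an adjusted p of 0.942 in limma. Over the 23 arrays the Pearson r was 0.243 between sets 1 and 2, 0.413 between sets 1 and 3, and 0.465 between sets 2 and 3. The annotation gives sets 2 and 3 the same source sequence, so these 2 are not separate readings. It gives set 1 another, and whether the 2 sources overlap was not checked. The 3 ALB sets thus gave no common direction at 400 mg/kg/day, and which of them follows the monkey transcript was not tested.

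**Figure D3:**
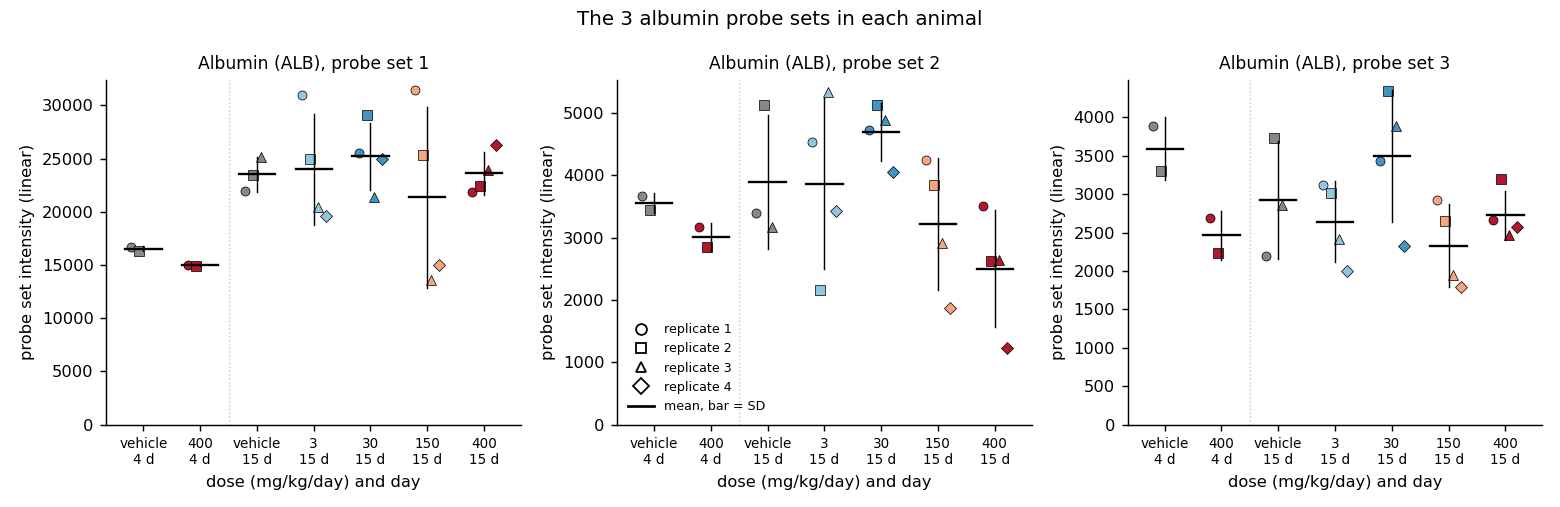
Intensity (linear scale) of the 3 ALB probe sets in each of the 23 animals, by dose in mg/kg/day and day; symbols mark replicate numbers, lines means and bars SD. In the 15-day animals at 400 mg/kg/day, set 1 runs from 21821 to 26282.5 and overlaps vehicle, and set 2 falls as low as 1235 in replicate 4.

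Over all 11 member probe sets, the median difference of 400 mg/kg/day from vehicle at 15 days was -0.19, beside -0.03 over all probe sets tested, and 7 of the 11 were negative. The lowest was HPX and the highest LBP. Without replicate 4 of 400 mg/kg/day LBP was at 0.10 and TF at 0.37. At an unadjusted p under 0.05 in limma there were 4 members, beside 12.5% of all probe sets. At 150 mg/kg/day 0 of 11 were called (0.677% of all probe sets) and the member differences ran from -0.51 to 0.20, with a median of -0.22 and 9 of the 11 negative. At 30 mg/kg/day 0 of 11 were called (0.0133% of all) with a range from -0.38 to 0.48, and at 3 mg/kg/day 0 of 11 (0% of all) with a range from -0.33 to 0.35. In each of these 3 comparisons limma gave 0 members at an unadjusted p under 0.05, beside 11.3% of all probe sets at 150, 9.82% at 30 and 10% at 3 mg/kg/day. The 4 dose comparisons share their vehicle animals.

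**Figure D4:**
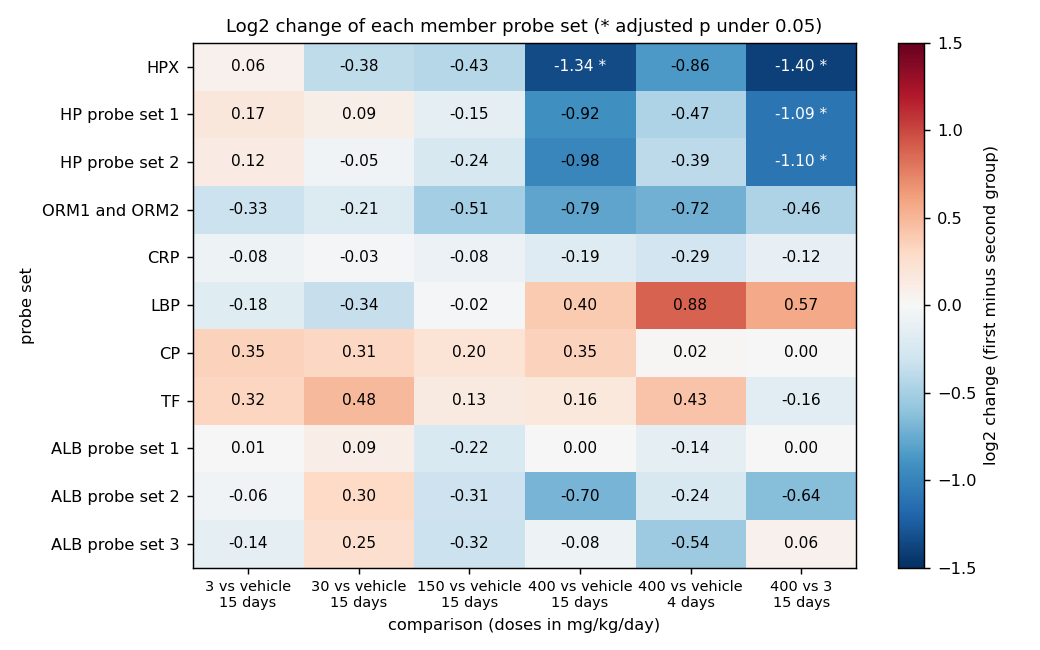
Log2 difference of each member probe set in 6 comparisons, named first group against second group with doses in mg/kg/day; colour and printed number give the difference, and a star marks an adjusted p under 0.05. Stars stand at HPX in 400 against vehicle at 15 days (-1.34) and at HPX and both HP sets in 400 against 3 mg/kg/day (-1.40, -1.09 and -1.10).

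After 4 days of dosing no member passed the test. HPX was at 12180.2 and 9874 in vehicle and at 7402 and 4926 at 400 mg/kg/day, a difference of -0.86 ± 0.36 (SE) with a p of 0.0251 before and 0.538 after adjustment in limma. Both treated animals lay below both vehicle animals. HP set 1 had 7013 and 6640.2 against 4324 and 5617, and HP set 2 had 6636 and 6167 against 4425 and 5378, with differences of -0.47 ± 0.41 (SE) and -0.39 ± 0.44 (SE). The shared ORM set had 2073 and 1391 against 870.7 and 1210.2, a difference of -0.72 ± 0.52 (SE). LBP had 387.6 and 444.8 against 1013.4 and 597.1, a difference of 0.88 ± 0.44 (SE) with an adjusted p of 0.681, and 0.51 to 1.26 with each animal left out.

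The remaining members did not pass the test after 4 days either. Their differences were -0.29 ± 0.71 (SE) for CRP, 0.02 ± 0.37 (SE) for CP and 0.43 ± 0.40 (SE) for TF. For ALB they were -0.14 ± 0.30 (SE), -0.24 ± 0.41 (SE) and -0.54 ± 0.29 (SE) on sets 1, 2 and 3. In 7 of the 11 member probe sets both treated animals lay below both vehicle animals, as they did in 23.6% of all probe sets tested. These were HPX, both HP sets, the shared ORM set and all ALB sets, so several probe sets of 1 gene are counted. On the LBP probe set the treated animals lay above. In limma 0 of 11 were called and 1 had an unadjusted p under 0.05, beside 0.292% called and 7.63% at an unadjusted p under 0.05 among all probe sets. The ACTB 5' to 3' signal ratio, a measure of RNA integrity, ran from 0.748 to 0.988 in 4-day vehicle and from 1.02 to 1.21 at 400 mg/kg/day. For GAPDH the ratio ran from 0.947 to 0.993 and from 0.974 to 1.17, and overlapped. The part of these ratios in the 4-day differences was not tested.

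The effect of 400 mg/kg/day on HPX at 15 days minus that at 4 days was -0.48 ± 0.45 (SE) with an adjusted p of 0.999 in limma. For all members this difference of effects ran from -0.59 to 0.47, and 0 of 11 were called, beside 0% of all probe sets. At an unadjusted p under 0.05 limma gave 0 members and 3.37% of all probe sets. A difference in effect between the days was therefore not detectable for any member with these group sizes.

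The vehicle animals of both days were compared to see how far members vary without the drug. The log2 difference of 15-day from 4-day vehicle was -0.78 ± 0.37 (SE) on HP set 1, -0.85 ± 0.40 (SE) on HP set 2 and -0.71 ± 0.34 (SE) for CP. Each had an unadjusted p under 0.05 and an adjusted p of 0.379, 0.378 and 0.379 in limma. CP had 2865 and 3105 at 4 days against 1622, 1346 and 2760.0 at 15 days. For HPX the difference was 0.01 ± 0.33 (SE). In this comparison 0 of 11 member probe sets and 0.863% of all probe sets were called. Signal of the ACTB probe set at the 5' end divided by that at the 3' end, a measure of RNA integrity, ran from 0.748 to 0.988 in the 4-day and from 0.540 to 0.606 in the 15-day vehicle animals. The same ratio for GAPDH ran from 0.947 to 0.993 and from 0.721 to 1.31, and overlapped. The part of these values in the differences was not tested.

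The order of the 7 group levels differed between members. HPX, by mean log2 level, was highest at 3 mg/kg/day, then in vehicle at 15 and at 4 days, then at 30 and 150 mg/kg/day, then in the 4-day animals at 400 mg/kg/day and lowest in the 15-day animals at 400 mg/kg/day. Each neighbouring pair in that order overlapped. HP set 1 was highest in 4-day vehicle, followed by 400 mg/kg/day for 4 days, 3 and 30 mg/kg/day, 15-day vehicle, 150 and then 400 mg/kg/day for 15 days. Of its neighbouring pairs only the first, the 4-day groups, did not overlap.

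Some animals were the highest or lowest of their group on many member probe sets. Replicate 4 of the 15-day animals at 400 mg/kg/day had the highest value of its group on 8 of the 11 member probe sets and the lowest on 2 others, TF and ALB set 2. Its array correlated with the mean of the other arrays of its group with an r of 0.936, within the 0.935 to 0.942 of the group. At 3 mg/kg/day replicate 1 was the highest on 7 of the 11 and replicate 4 the lowest on 7. The 11 include 2 sets of HP and 3 of ALB, so several probe sets of 1 gene are counted. The same counts were not made over all probe sets tested, so whether these animals stand out was not tested.

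Differences between animals of the same group were shared by some members and not by others. After subtraction of group means, HP set 1 and the shared ORM set correlated over the 23 animals with a Pearson r of 0.857 and a Spearman rho of 0.869. The adjusted p from 100000 permutations within groups was 0.00448 for r and 0.00056 for rho, over the 28 pairs of the 8 genes, each gene on 1 probe set. Leaving out the 2 animals farthest from the median of HP gave an r of 0.866, and leaving out replicate 4 at 400 mg/kg/day gave 0.819. This was the only pair past 0.05 by both measures.

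CP correlated with the shared ORM set with an r of 0.759 and a rho of 0.621, with adjusted permutation p of 0.049 and 0.153. The r was 0.66 without the 2 animals farthest from the median of the ORM set. CP and HP had an r of 0.662 and a rho of 0.611, with adjusted permutation p of 0.109 and 0.153. HPX and HP, both scavengers of red cell products, had an r of 0.271 and a rho of 0.064, with adjusted permutation p of 0.607 and 0.93. CRP and TF had the lowest r, -0.436, with an adjusted permutation p of 0.497. TF had an r of 0.266 with ALB set 1, the ALB set among the 28 pairs. With ALB sets 2 and 3, for which no permutation was run, it had 0.539 and 0.66. For LBP r ran from -0.27 to 0.19. With TF it was 0.404 without the 2 animals farthest from the median of LBP. With HP it was -0.403 without the 2 animals farthest from the median of HP.

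**Figure D5:**
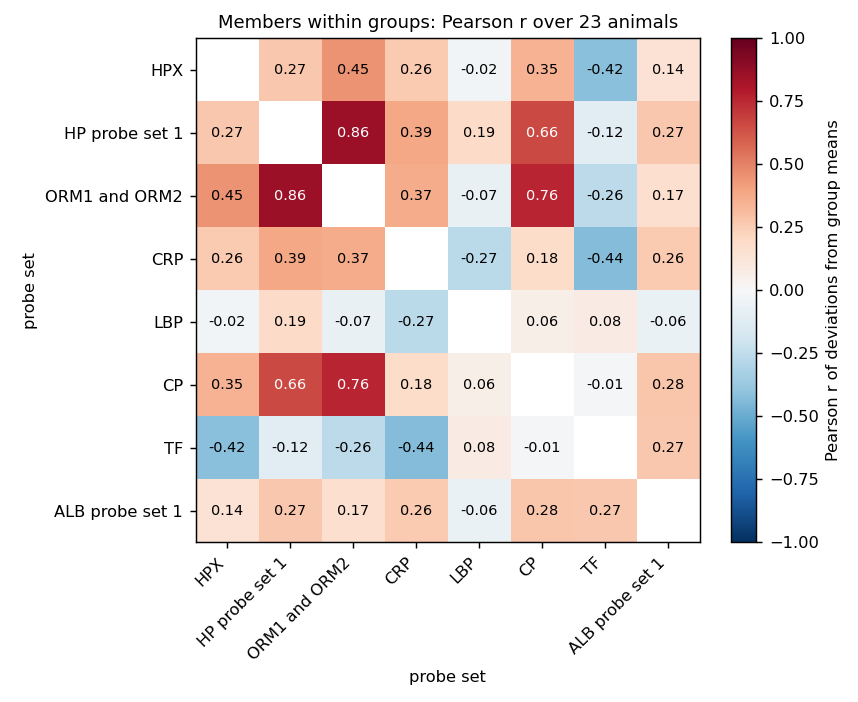
Pearson r between members, 1 probe set per gene, over 23 animals after subtraction of each group's mean; colour and number give r. The largest values among these probe sets are 0.86, 0.76 and 0.66, between HP, ORM and CP, and LBP has values between -0.27 and 0.19. ALB is shown by set 1 only.

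The genes most like each member were taken as those with the highest Pearson r of log2 values over all 23 arrays among 5455 genes, as a description in which all points share the dose groups. For HPX these were C8B (0.864), a subunit of the terminal complement complex, CFB (0.823), complement factor B, and MAT2A (0.802), a methionine adenosyltransferase. Within groups the r with HPX was 0.513, 0.282 and 0.599. For HP set 1 they were C8A (0.8), the partner subunit of C8B, MSN (0.767), the membrane linker moesin, and NNMT (0.766), a nicotinamide methyltransferase. For the shared ORM set they were MYB (0.69), MSN (0.674) and NNMT (0.672), so 2 of the 3 names were also those of HP.

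For CP the nearest genes were UCP3 (0.729), C4BPA (0.69), which encodes a complement inhibitor, and LRRC41 (0.672). For CRP they were PA2G4 (0.749), DGKA (0.675) and HMMR (0.658), and for LBP LSM3 (0.709), GLO1 (0.677) and RAP1GAP2 (0.664). For TF they were F5 (0.715), coagulation factor V, EEIG1 (0.655) and NACA (0.653). For ALB set 1 they were PEX3 (0.793), IGFBP4 (0.766) and SERINC1 (0.732).

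Other positive acute phase proteins were mostly on the lower side at 400 mg/kg/day. Of 31 listed genes 21 were tested, and against 15-day vehicle 0 rose, 3 fell and 18 did not pass. Over all probe sets tested 2.14% were called in this comparison, 0.876% as lower. The median difference of the list was -0.29, beside -0.03 over all probe sets tested. FGL1, a fibrinogen-like protein secreted by hepatocytes, fell by 2.62 ± 0.53 (SE) on the log2 scale, from 2569 ± 1369 (SD, n = 3) to 430.1 ± 350.2 (SD, n = 4), with an adjusted p of 0.00643 in limma. FN1, fibronectin, fell by 1.22 ± 0.23 (SE), from 5413 ± 838 to 2319 ± 335, with an adjusted p of 0.00415. CFB fell by 0.86 ± 0.15 (SE), from 5973 ± 197 to 3327 ± 576, with an adjusted p of 0.00271. The FGL1 call was lost without replicate 3 of the 15-day vehicle animals (-2.26, adjusted p of 0.0514).

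Against 3 mg/kg/day, 5 of the 21 fell and 1 rose, where 4.18% of all probe sets were called, 2.26% as lower. FGL1, FN1 and CFB fell again, by 2.43, 1.15 and 1.05, with C2, complement component 2 (-0.56 ± 0.14, SE), and CD14, the lipopolysaccharide co-receptor (-0.78 ± 0.19, SE). LCN2, lipocalin-2, which withholds iron from bacteria, was 151.7 ± 47.7 (SD, n = 4) at 400 and 28.6 ± 26.5 (SD, n = 4) at 3 mg/kg/day, a rise of 2.02 ± 0.38 (SE). The level at 3 mg/kg/day lies under the filter intensity of 39.7, and the rise was 1.23 with a larger and 2.68 with a smaller value added before the log. The C2 call was lost without replicate 1 or 3 of 3 mg/kg/day or replicate 1 of 400 mg/kg/day (-0.52 to -0.48, adjusted p up to 0.0955). The CD14 call was lost without replicate 4 of either dose (-0.63 and -0.66, adjusted p of 0.0768 and 0.0742). After 4 days 20 of the 21 were negative, with a median of -0.41 beside -0.05 over all, and 0 were called while 8 had an unadjusted p under 0.05 in limma, as did 7.63% of all probe sets.

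Negative acute phase proteins and carriers were listed as 12 genes other than members, of which 10 were tested. Against 15-day vehicle 3 fell at 400 mg/kg/day and 0 rose, with a median of -0.05. Of all probe sets tested 0.876% were called as lower there. IGF1, the growth factor made by liver under growth hormone, fell by 1.41 ± 0.30 (SE), F12, coagulation factor XII, by 1.09 ± 0.22 (SE), and SHBG, the sex hormone carrier, by 0.87 ± 0.21 (SE), with adjusted p of 0.0106, 0.00669 and 0.0265 in limma. RBP4, the retinol carrier, had a difference of 0.70 ± 0.28 (SE) with an adjusted p of 0.268. Against 3 mg/kg/day IGF1, F12 and SHBG fell again and SERPINA6, the cortisol carrier, rose by 0.74 ± 0.20 (SE). In that comparison 4.18% of all probe sets were called, 2.26% as lower. The list as a whole had a median of 0.28 there, beside 0.01 over all probe sets tested, and 6 of the 10 were positive. The IGF1 call there was lost without replicate 3 of 3 mg/kg/day or replicate 1 or 3 of 400 mg/kg/day (-1.03 to -0.85, adjusted p up to 0.107).

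Several calls in that list were lost without single animals. The F12 call against vehicle was lost without replicate 1 of vehicle (-0.85, adjusted p of 0.081). The IGF1 call against vehicle was lost without replicate 2 of vehicle (-1.36, adjusted p of 0.0538) or replicate 1 of 400 mg/kg/day (-1.16, adjusted p of 0.0506). The SHBG call against vehicle was lost without replicate 1 or 2 of either group (-0.91 to -0.69, adjusted p up to 0.191), and the SERPINA6 call against 3 mg/kg/day without 6 of the 8 animals compared, each in turn (adjusted p up to 0.125).

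Of 38 listed signalling genes and hepatocyte transcription factors 29 were tested, and 1 fell against 15-day vehicle at 400 mg/kg/day. Of all probe sets tested 2.14% were called in this comparison, 0.876% as lower. CEBPB, a C/EBP factor that acts on acute phase promoters, fell by 0.89 ± 0.22 (SE), from 5216 ± 477 (SD, n = 3) to 2912 ± 931 (SD, n = 4), with an adjusted p of 0.0339 in limma. This call was lost without any one of 6 of the 7 animals (-0.95 to -0.69, adjusted p up to 0.135), and the difference after 4 days was -0.22 ± 0.29 (SE). Its relative CEBPD was at -0.91 ± 0.31 (SE) with an adjusted p of 0.158. PPARA, the receptor of ciprofibrate, fell against 3 mg/kg/day by 0.91 ± 0.19 (SE) with an adjusted p of 0.00499. It was the 1 of the 29 called there, beside 4.18% of all probe sets.

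Of 28 listed genes of iron, copper and haem handling 18 were tested. BLVRB, a biliverdin reductase, rose against vehicle at 400 mg/kg/day by 0.97 ± 0.23 (SE) after 15 days, with an adjusted p of 0.022 in limma. After 4 days it rose by 1.43 ± 0.30 (SE), with an adjusted p of 0.0332 in limma. It was the only 1 of the 18 called against vehicle at either time at this dose, and none fell. Of all probe sets 2.14% were called after 15 days and 0.292% after 4 days. Against 3 mg/kg/day BLVRB rose by 1.70 ± 0.21 (SE) and FTL, ferritin light chain, by 0.62 ± 0.17 (SE). SLC11A2, an iron transporter, fell by 1.15 ± 0.32 (SE), to 66.1 ± 16.7 from 169.4 ± 53.3. In that comparison 4.18% of all probe sets were called. The 15-day BLVRB call against vehicle was lost without replicate 2 or 3 of vehicle or replicate 1 or 3 of 400 mg/kg/day (0.79 to 0.94, adjusted p up to 0.0923), and the 4-day call without any one of the 4 animals (adjusted p up to 0.322). The FTL and SLC11A2 calls were lost without any one of 7 and of 6 animals (adjusted p up to 0.094 and 0.129).

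Markers of cell types were summed to see what moved beside these genes, and 12 of 14 listed hepatocyte markers passed the intensity filter. The summed intensity of these 12, none of them a member, ran from 62941 to 72354 in 15-day vehicle and from 46379 to 58413 at 400 mg/kg/day, and the groups did not overlap. CYP2E1, a cytochrome P450 that oxidises ethanol, alone went from 13669 ± 1635 (SD, n = 3) to 1479 ± 859 (SD, n = 4). Without it, a sum chosen after its values were seen, the other 11 ran from 49380 to 60188 and from 46135 to 56868, and the groups overlapped. Of the 12, CYP2E1 fell and CYP3A4 rose, beside 2.14% of all probe sets called, and the median difference was -0.13. The CYP3A4 call was lost with only the groups compared in the fit (1.31, adjusted p of 0.0643). Against 3 mg/kg/day 3 of the 12 were called as lower, 1 as higher and 8 did not pass. There 4.18% of all probe sets were called, 2.26% as lower. APOB, the core protein of very low density lipoproteins, fell by 1.34 ± 0.24 (SE), with an adjusted p of 0.00151 in limma. ASGR2, a subunit of the asialoglycoprotein receptor, fell by 0.67 ± 0.15 (SE), with an adjusted p of 0.00834. CYP2E1 fell by 3.88 ± 0.45 (SE), and CYP3A4 rose by 1.57 ± 0.24 (SE). The summed intensity of 9 Kupffer cell and macrophage markers ran from 4204 to 5607 in vehicle and from 2828 to 3722 at 400 mg/kg/day. Of the 9, 0 were called and 3 had an unadjusted p under 0.05 in limma, beside 12.5% of all probe sets. CD14, also listed above as an acute phase protein, makes up much of this sum. Its mean was 1851 at 400 and 3227 at 3 mg/kg/day, where the sums had medians of 3454 and 4704. A sum without CD14 was not made. MARCO, a scavenger receptor of macrophages, fell against 3 mg/kg/day by 2.21 ± 0.46 (SE), from 162.6 ± 39.3 to 22.4 ± 7.17, the latter under the filter intensity of 39.7, and CD14 was the other one called. For the slope CD5L, a protein secreted by macrophages, was called with CD14, at -0.32 ± 0.08 (SE) per step and an adjusted p of 0.032. Of all probe sets 3.11% were called for the slope, 1.31% as falling. The CD5L slope call was lost in 7 of 32 alternatives (adjusted p up to 0.219 in limma). That of CD14 was lost in 4 of 32 (up to 0.163). The summed intensity of 8 sinusoidal endothelial markers ran from 2475 to 2845 in vehicle and from 1847 to 2283 at 400 mg/kg/day. Of the 8, 0 were called between these groups and 2 had an unadjusted p under 0.05 in limma, beside 12.5% of all probe sets. At 3 mg/kg/day their sum ran from 1883 to 2654 and overlapped both groups.

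The summed intensity of 9 stellate cell and fibroblast markers ran from 1429 to 2061 in vehicle and from 962.8 to 1163 at 400 mg/kg/day. TIMP1, a protease inhibitor of the matrix, was the 1 called, as lower (-1.81 ± 0.42, SE), beside 0.876% of all probe sets called as lower. That call was lost without replicate 1 or 2 of vehicle or replicate 1 or 3 of 400 mg/kg/day (-1.88 to -1.54, adjusted p up to 0.151). TIMP1 was also called at 150 mg/kg/day against vehicle (-2.03 ± 0.42, SE), beside 0.677% of all probe sets. Its mean intensity at 150 mg/kg/day, 35.3, lies under the filter intensity of 39.7. The call at 150 mg/kg/day was lost in 5 of 18 alternatives (adjusted p up to 0.151 in limma). In the alternatives that left out no animal, the difference ran from -2.42 to -1.38. SPARC, a matrix protein, fell against 3 mg/kg/day by 1.31 ± 0.23 (SE), with an adjusted p of 0.00135 in limma. Neutrophil markers (5 genes) ran from 614.5 to 754.4 and from 488.8 to 674.1, and red cell markers (4 genes) from 2024 to 3089 and from 1618 to 2416. T and NK cell markers (6 genes) ran from 822.6 to 840.3 and from 870.7 to 1026. Their sums at 3 and 150 mg/kg/day, from 609.1 to 757.6 and from 615.5 to 652.2, lay below vehicle. At 30 mg/kg/day they ran from 540.5 to 918.1. B and plasma cell markers (3 genes) ran from 516.7 to 591.5 and from 388 to 589.1, and cholangiocyte markers (4 genes) from 324.1 to 417.5 and from 256.5 to 407. The ACTB 5' to 3' ratio ran from 0.540 to 0.606 in vehicle and from 0.552 to 0.839 at 400 mg/kg/day. The part of these values in the HPX and HP differences was not tested. In whole liver tissue, fewer cells of a type and less RNA per cell cannot be told apart.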

How the data were processed

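The authors deposited 1 linear intensity value for each probe set and array, for which the submitters' processing notes name MAS5. Its version and settings are not given in the sources used here, and no detection calls were used. Array means trimmed by 2% at each end were 150.065 to 150.08, so no further scaling was applied. Per the labels' protocols, TRIzol RNA was converted to biotinylated cRNA.

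Groups of dose and day were read from the sample titles. Gene symbols came from the platform annotation, which can be old. Of 12625 rows, 10961 name 1 gene, 545 several and 1119 none, and 67 control rows were left out. Values were converted to log2 after adding 16, and rows with a mean at or above the 40th percentile (5.80, intensity 39.7) were tested. A gene was represented by its tested probe set with the highest mean.

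One means model over 7 groups was fitted with limma 3.58.1 in R 4.3.3 (intensity trend, 16 residual and 6.63 prior degrees of freedom). Tests were two-sided, Benjamini-Hochberg adjusted over 7535 rows and called at an adjusted p under 0.05. SE comes from the fit and SD from a group's arrays. Labels call the samples biological replicates of separate animals.

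The members, the 13 gene lists (204 genes, 136 tested) and the tests were chosen with earlier results of these data known. All member probe sets were named, with the 3 genes nearest to each member by correlation. Of each list up to 4 genes by p at 400 mg/kg/day against 15-day vehicle could be named, and further listed genes that were called. Of the cell type lists only called genes were named. The fit was tested on simulated data with 7535 rows. For 400 mg/kg/day against 15-day vehicle it recovered 4 of 67 rows changed by 0.5, 11 of 67 changed by 1 and 55 of 66 changed by 2 on the log2 scale, with 4 false calls. Alternatives covered pseudocount, filter, scaling, variance model, array weights, replicate block, groups in the fit, dose score, probe set summary and each animal left out. No sequences were used.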

Additional observations from a re-analysis of the deposited data

Results flagged for a closer look

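Among 44 sets of 4 animals (11 member probe sets in 4 dose groups), 4 held an animal whose gap to the nearest of the others, relative to the whole range, passed Dixon's 95% critical value. Chance flags about 1 in 20 such sets. Replicate 1 at 3 mg/kg/day had an HPX intensity of 13842.5, above the 10818 to 10932 of the others. Replicate 4 at 30 mg/kg/day had an HPX intensity of 14140.6, above the 6678 to 7570.2 of the others. Replicate 4 at 150 mg/kg/day had a CRP intensity of 85, below the 277.3 to 313.6 of the others. Replicate 4 at 3 mg/kg/day had a TF intensity of 1244.3, below the 2559 to 2927 of the others. The causes were not tested.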

How the results depend on the processing

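Of 46 member differences followed under 881 alternatives, 818 kept their direction and their side of the threshold, 23 lost a call, 7 gained one and 33 changed sign. None of those that changed sign passed the threshold on either side. HPX kept its call against 3 mg/kg/day (adjusted p 0.000748 to 0.00965 in limma) and for the slope (0.00048 to 0.0185) under all alternatives run, and against 15-day vehicle under all but 1, with adjusted p of 0.00137 to 0.0534. The HP calls against 3 mg/kg/day were lost in 9 of 20 alternatives on set 1 and 13 of 19 on set 2, with adjusted p up to 0.133 and 0.175. Of 48 differences of listed genes that were called, none changed sign under 1091 alternatives, and 131 of those alternatives lost the call.

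The number of member probe sets called at 400 against 3 mg/kg/day was 1 under median scaling, 1 without a variance trend and 1 with only the groups compared in the fit, and 1 to 3 with each animal left out. For the slope it was 2 with array weights, 3 over the 4 drug doses only and 1 to 3 with each animal left out. Against 15-day vehicle it was 0 to 3 with each animal left out, 0 without replicate 1 of vehicle and 3 without replicate 4 of 400 mg/kg/day. The cause was not tested. Over all probe sets, the 161 calls of that comparison became 252 with array weights, 93 without replicate 1 of vehicle and 94 without replicate 1 of 400 mg/kg/day. The last 2 fits have fewer samples.

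Values near 0 changed sign as follows, none of them called, and the cause was not tested. At 400 mg/kg/day against 15-day vehicle, ALB set 1 was -0.016 with array weights and -0.26 as the mean of the 3 ALB sets, and ALB set 3 was 0.034 under median scaling and 0.035 with the replicate block. With each animal left out these were -0.048 to 0.054 for ALB set 1, -0.27 to 0.11 for ALB set 3, -0.54 to 0.15 for CRP and -0.0072 to 0.37 for TF. At 400 against 3 mg/kg/day, ALB set 1 was 0.25 under quantile normalization and 0.066 under median scaling, and CP was -0.047 with array weights. With each animal left out these were -0.092 to 0.13 for ALB set 1, -0.065 to 0.15 for ALB set 3, -0.74 to 0.24 for CRP, -0.25 to 0.20 for CP and -0.44 to 0.043 for TF. CP after 4 days was -0.080 under quantile normalization and -0.079 to 0.12 with each animal left out. HPX in 15-day against 4-day vehicle was -0.19 under quantile normalization, -0.044 with array weights and -0.14 to 0.16 with each animal left out.

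Replicate numbers name different animals in each group. Deviations from group means in 58 pairs of animals with the same number had a median r of -0.00573 (-0.0873 to 0.0719), so the numbers were not taken as pairs. With the replicate block the HP set 2 call against 3 mg/kg/day was lost (adjusted p 0.0727 in limma), and no other member call changed. Detection calls were not used here, and ALB set 1, near the highest value of its array, may be limited in the rise it can show. Groups of 2 to 4 arrays limit every comparison, and in data simulated for 400 mg/kg/day against 15-day vehicle 11 of 67 changes of 1 log2 unit were called.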
